A study of Rattus norvegicus with 6 samples.

Results

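The genes that make, regulate and break down polyamines, 10 in number (Odc1, Amd1, Srm, Sms, Azin1, Oaz1, Oaz2, Sat1, Smox and Paox), were taken by symbol from the 17327 genes counted in each sample. All 10 had a row, and 9 of them passed the filter on low counts and were tested. Of these, Odc1, the gene of the first enzyme of the pathway, rose most in Schwann cells stimulated with soluble Neuregulin1 (NRG1), with a 2.05-fold change against mock cells. Amd1 and Smox rose as well, by 1.53-fold and 1.64-fold, and Sat1, the gene of the main acetylating enzyme of polyamine breakdown, fell by a factor of 1.44. These genes were called at an adjusted p of 0.01, as were 11.8% of all genes tested in edgeR. Amd1, Smox and Sat1 lost their calls when certain cell preparations were left out, while Odc1 kept its call. The genes of the antizymes and of the antizyme inhibitor, which set the stability of the Odc1 protein, did not pass the test. Oaz2 came nearest, lower with NRG1 in every pair (edgeR adjusted p = 0.0323).

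RNA was measured in 6 samples of primary Schwann cells, the glia of peripheral nerves, prepared from sciatic nerves of adult Wistar rats. In each of 3 independent preparations, 1 sample received 10 nM recombinant soluble NRG1β1 for 6 h and 1 mock sample received the same volume of the ligand buffer, PBS with BSA. All 6 samples had been grown with glial growth factor, which the study's methods name as NRG1β1, and were then starved for 18 h in medium with 2% serum. Forskolin, a compound that raises cAMP, was present at 10 μM in growth, starvation and stimulation alike, so that both groups carried it.

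Polyamines are small positively charged molecules that bind nucleic acids and are needed for growth and translation. Ornithine decarboxylase (Odc1) makes putrescine from ornithine, and S-adenosylmethionine decarboxylase (Amd1) makes the aminopropyl donor from which spermidine synthase (Srm) and spermine synthase (Sms) build spermidine and spermine. The antizymes Oaz1 and Oaz2 bind the Odc1 protein and send it to the proteasome, while the antizyme inhibitor Azin1, a relative of Odc1 without its enzyme activity, takes up antizyme. In breakdown, Sat1 acetylates spermidine and spermine, Paox oxidises the acetylated forms and Smox oxidises spermine directly. Much of this control acts on translation and protein stability, which counts of RNA do not show.

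Between 6821590 and 15475018 counts fell on genes per sample, and the NRG1 library was the larger one in each pair, by a factor of 1.01, 1.30 and 1.24. Levels are given in CPM, the count scaled to the TMM-adjusted library size, and the floor of 3 counts lay between 0.19 and 0.44 CPM. Both samples of replicate 1 stood apart from the other 4. The summed level of 4 Schwann cell markers (S100b, Sox10, Erbb3 and Ngfr) was 2664 to 2800 CPM in replicate 1 and 5155 to 6621 CPM in replicates 2 and 3. Of the 5 fibroblast markers, Dcn, Lum, Thy1 and Pdgfra together reached 2365 to 2713 CPM in the samples of replicate 1 against 0.15 to 1.61 CPM in the others, where Dcn, Lum and Thy1 had no count, and Col1a1 was high in all 6. Over the whole list the range was 13610 to 30350 CPM in mock and 13400 to 33820 CPM in NRG1 samples, and neither of the 2 fibroblast markers tested was called. Of the 4 Schwann cell markers S100b fell, and the other 3 did not pass the test. The 5 macrophage markers summed to 10.1 CPM or less in every sample, with Ptprc at 0 throughout. The 3 endothelial markers summed to 0.52 CPM or less, with Pecam1 and Cdh5 at 0. In bulk RNA, fewer cells of a type and less RNA per cell cannot be told apart, and the part of these markers in the results below was not tested. Values without replicate 1 are given where they change a call.

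Among the synthetic enzymes, Odc1 was counted at 69.4, 58.3 and 59.1 CPM in mock samples 1, 2 and 3 and at 118.0, 165.2 and 107.1 CPM in NRG1 samples 1, 2 and 3. The groups did not overlap, and NRG1 sample 2 was the highest of all. Mock samples averaged 62.3 ± 6.20 CPM (SD, n = 3), and those with NRG1 averaged 130.1 ± 30.9 CPM (SD, n = 3). The log2 fold change was 1.04 with a 95% interval of 0.73 to 1.35 (edgeR adjusted p = 0.000204). Within the pairs the log2 ratio was 0.76, 1.50 and 0.85 for replicates 1, 2 and 3. Odc1 was the only member past both an adjusted p of 0.01 and an absolute log2 fold change of 1, thresholds that 3.47% of the 9740 genes tested passed, 1.56% upwards and 1.91% downwards. Without replicate 2 its log2 fold change was 0.81, still called at an adjusted p of 0.000362 but under the fold threshold. Without replicate 1, the preparation with the high fibroblast markers, it was 1.18. RefSeq names pseudogenes after Odc1, Amd1, Sms and Oaz1, and alignments in more than 1 place were not counted, so the levels of these 4 genes are uncertain. The effect of this was not tested.

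Amd1 was counted at 63.8, 52.0 and 64.4 CPM in mock and at 87.0, 105.5 and 85.1 CPM in NRG1 samples 1, 2 and 3. Its groups also did not overlap, and mock sample 2 was the lowest and NRG1 sample 2 the highest, as a pair with a log2 ratio of 1.02 against 0.45 and 0.40 in replicates 1 and 3. The log2 fold change was 0.62 with a 95% interval of 0.32 to 0.91 (edgeR adjusted p = 0.0054). Leaving out replicate 2 ended the call, with a log2 fold change of 0.43 and an adjusted p of 0.0198. In every pair Odc1 rose more than Amd1, by 0.32, 0.48 and 0.45 on the log2 scale.

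The sequences upstream of these genes are shown because Odc1 and Amd1 rose together. They are the 250 bases before the RefSeq gene start, from the GRCr8 assembly, which is not the rn5 build the reads were mapped to. The Odc1 window lies at chr6:46058415-46058664, plus strand, and the Amd1 window at chr20:45265983-45266232, minus strand. Each is written 5′ to 3′ along the gene, with TGACG, which is 5 bases of the cAMP response element, and the TATA box letters TATAAA in capitals. On the reverse strand the former reads CGTCA.
Odc1: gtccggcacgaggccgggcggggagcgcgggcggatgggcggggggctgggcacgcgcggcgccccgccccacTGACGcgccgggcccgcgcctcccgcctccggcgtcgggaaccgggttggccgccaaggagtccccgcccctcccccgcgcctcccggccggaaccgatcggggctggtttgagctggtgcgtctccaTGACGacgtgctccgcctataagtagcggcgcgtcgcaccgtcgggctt
Amd1: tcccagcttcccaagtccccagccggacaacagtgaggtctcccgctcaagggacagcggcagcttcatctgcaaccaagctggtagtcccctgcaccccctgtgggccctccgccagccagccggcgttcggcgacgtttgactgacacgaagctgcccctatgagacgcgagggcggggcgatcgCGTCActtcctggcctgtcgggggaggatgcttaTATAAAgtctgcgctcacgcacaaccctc
Both windows held TGACG, 2 times in Odc1 and 1 time, on the reverse strand, in Amd1. TATAAA was found in Amd1, where it began 29 bases before the start. The Odc1 window held TATAAG, which differs from it in the last base and was not searched for. No CACGTG, the E-box bound by Myc and Max, and no full TGACGTCA was found in either window. Bases after the gene start and further upstream were not searched, so this does not show that the genes lack these sites. Among 33469 windows of the same length, 18.2% held TGACG, 12.9% TATAAA, 5.59% CACGTG and 1.59% TGACGTCA, where every TGACGTCA also counts as a TGACG. Of the 9 members with a window in the table, 5 held TGACG, 2 TATAAA and 2 (Srm and Oaz1) CACGTG. The Sp1 letters GGGCGG were found in 8 of the 9 windows and in 30.5% of all. The 33469 windows outnumber the 17327 genes counted and were not matched to the members in base composition. The shares therefore do not show a trait of the members. The motif matches describe letters only and were not tested against the changes.

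Sms, which turns spermidine into spermine, had few counts, between 19 and 73 per sample. It was at 5.88, 2.81 and 3.23 CPM in mock and at 4.57, 8.20 and 4.32 CPM in NRG1 samples, so the groups overlapped and the pairs went both ways, with log2 ratios of -0.35, 1.48 and 0.40. The log2 fold change of 0.50 had a 95% interval of -0.16 to 1.16 (edgeR adjusted p = 0.264). It was 0.92 without replicate 1 and 0.06 without replicate 2, so that its size depends on which pairs are included. Srm had 1, 0 and 3 counts in mock and 2, 7 and 5 counts in NRG1 samples, 4 against 14 in all. With 7 counts at most it did not pass the filter and was not tested, so these counts give no measure of a change in spermidine synthase. The annotation and mapping of the gene in rn5 were not examined here, so the low counts do not show that it was not expressed.

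**Figure D1:**
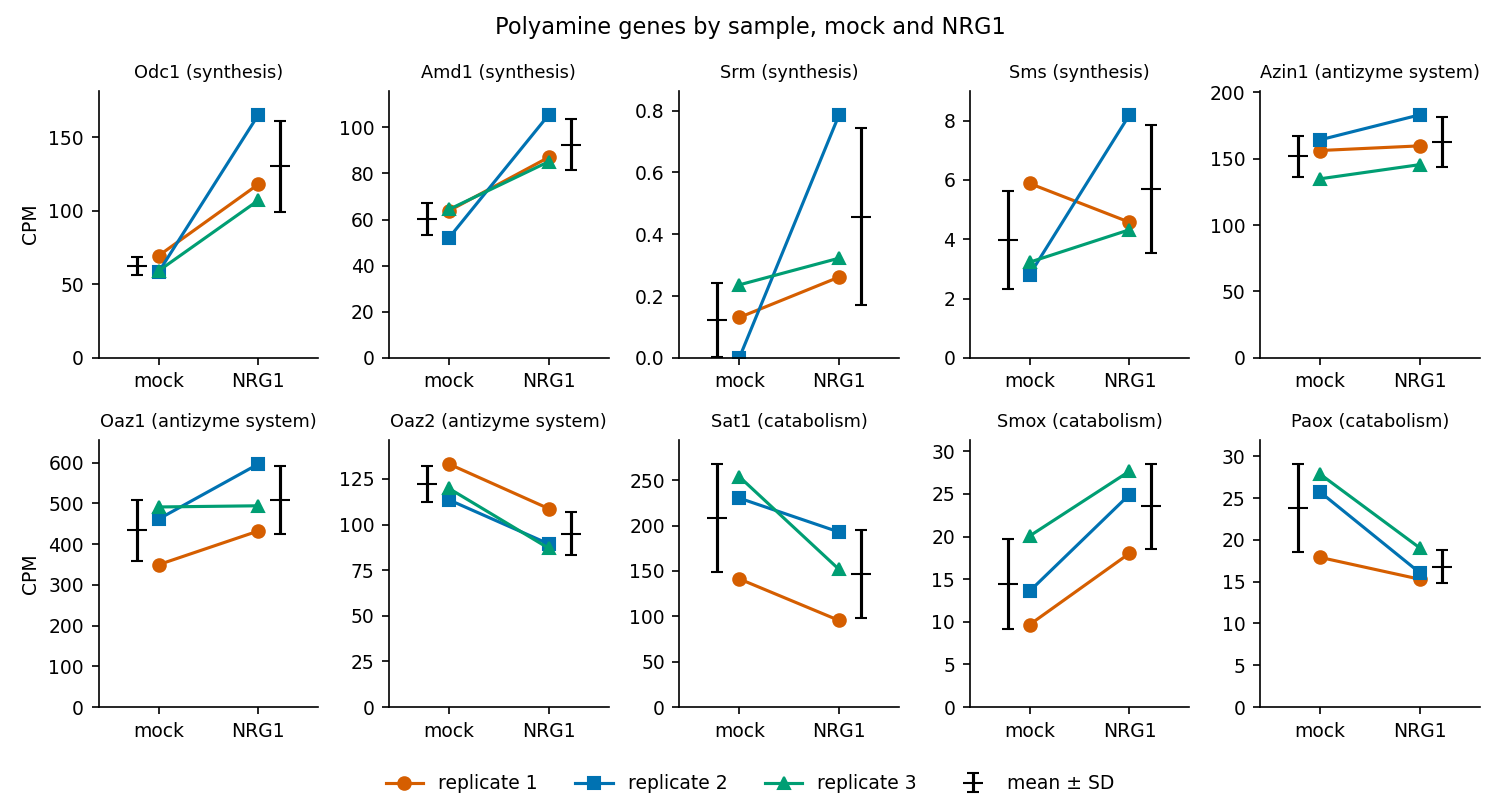
Levels of the 10 polyamine genes in CPM (vertical axes, each starting at 0) in mock and NRG1 samples, with lines joining the samples of 1 replicate and black marks for the mean ± SD of 3 samples. Odc1 rose in every pair, from 58.3 to 69.4 CPM in mock to 107.1 to 165.2 CPM in NRG1 samples, while Oaz2, Sat1 and Paox were lower with NRG1 in every pair.

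In the antizyme system no gene was called at an adjusted p of 0.01 by edgeR or by DESeq2, and 1 of the 3, Oaz2, had an unadjusted p below 0.05, as had 35.7% of all genes. Azin1 lay between 134.8 and 164.1 CPM in mock and between 145.5 and 183.0 CPM in NRG1 samples. These ranges overlapped widely, and the log2 fold change of 0.10 had a 95% interval of -0.15 to 0.35 (edgeR adjusted p = 0.577). Oaz1 was at 349.7 to 491.4 CPM in mock and 432.5 to 596.9 CPM in NRG1 samples, with a log2 fold change of 0.23 and a 95% interval of -0.04 to 0.50 (edgeR adjusted p = 0.214). Its ratio was near 0 in replicate 3, at 0.01, and 0.31 and 0.37 in replicates 1 and 2. Both intervals lie below the 0.73 that bounds the interval of Odc1.

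Oaz2 was at 133.2, 113.6 and 119.8 CPM in mock and at 108.7, 89.4 and 87.0 CPM in NRG1 samples 1, 2 and 3. The groups did not overlap and all 3 pairs were lower with NRG1. The log2 fold change of -0.37, with a 95% interval of -0.61 to -0.12, did not reach the threshold of 0.01 (edgeR adjusted p = 0.0323). Set side by side, the log2 ratio of Odc1 exceeded that of Oaz2 by 1.06, 1.84 and 1.32 in replicates 1, 2 and 3, and that of Oaz1 by 0.46, 1.13 and 0.85. Against Azin1 the excess was 0.73, 1.34 and 0.74. The differences between genes were not tested.

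The 3 genes of breakdown did not move one way. Sat1 was at 141.2, 230.2 and 253.8 CPM in mock and at 95.4, 192.8 and 151.6 CPM in NRG1 samples 1, 2 and 3. Because the level in replicate 1 was lower in both groups, the groups overlapped, while every pair fell, with log2 ratios of -0.56, -0.26 and -0.74. The log2 fold change was -0.52 with a 95% interval of -0.80 to -0.25 (edgeR adjusted p = 0.00895), close to the threshold. The call was lost without replicate 1 (-0.50, adjusted p = 0.032) and without replicate 3 (-0.39, adjusted p = 0.156).

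Smox was at 9.67, 13.6 and 20.1 CPM in mock and at 18.0, 24.9 and 27.7 CPM in NRG1 samples 1, 2 and 3. Replicate 1 was again the lowest of both groups and the groups overlapped, but each pair rose, with log2 ratios of 0.89, 0.86 and 0.46. The log2 fold change was 0.72 with a 95% interval of 0.38 to 1.06 (edgeR adjusted p = 0.00527). The adjusted p rose to 0.017 without replicate 1, to 0.0189 without replicate 2 and to 0.0166 in DESeq2, with log2 fold changes between 0.64 and 0.75, so the call depended on the tool and on replicates 1 and 2. Paox lay between 17.9 and 27.9 CPM in mock and between 15.3 and 19.0 CPM in NRG1 samples. It was lower in every pair, with a log2 fold change of -0.50 and a 95% interval of -0.82 to -0.17 that missed the threshold (edgeR adjusted p = 0.0306).

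The windows upstream of Sat1 and Smox are given for comparison with those of Odc1 and Amd1, since these 2 genes of breakdown moved in opposite directions. They lie at chrX:44007839-44008088, plus strand, for Sat1 and at chr3:139204351-139204600, plus strand, for Smox in GRCr8, with the same letters in capitals.
Sat1: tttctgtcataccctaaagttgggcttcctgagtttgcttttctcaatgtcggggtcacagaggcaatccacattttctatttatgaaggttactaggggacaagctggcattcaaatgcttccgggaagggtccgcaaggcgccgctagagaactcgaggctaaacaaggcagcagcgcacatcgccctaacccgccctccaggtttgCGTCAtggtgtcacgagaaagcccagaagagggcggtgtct
Smox: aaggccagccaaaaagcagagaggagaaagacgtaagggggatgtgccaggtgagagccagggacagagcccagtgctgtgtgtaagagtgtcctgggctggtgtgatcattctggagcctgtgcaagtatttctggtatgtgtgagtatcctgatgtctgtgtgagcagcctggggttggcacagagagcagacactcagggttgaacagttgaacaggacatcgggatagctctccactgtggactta
The Sat1 window held 1 TGACG on the reverse strand, 41 bases before the start, and 2 matches to GGGCGG. None of the 5 motifs was found in the Smox window, which says only that these letters are not in its 250 bases.

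Counted together, 3 of the 9 members tested rose (33.3%) and 1 fell (11.1%) at an adjusted p of 0.01, against 6.31% and 5.51% of the 9740 genes tested. In either direction this was 44.4% of the members and 11.8% of all genes. Without the replicate block in edgeR none of these calls was made, with adjusted p = 0.163 for Odc1 and higher values for the other 3, while 3 members and 13.7% of all genes had an unadjusted p below 0.05. At an adjusted p of 0.05, which 23.2% of all genes passed, 3 rose and 3 fell, the latter being Sat1, Oaz2 and Paox. The median log2 fold change was 0.23 over the 9 and -0.03 over all genes. In 3 of the 9 (33.3%), Odc1, Amd1 and Oaz2, the CPM of the groups did not overlap, which was so for 19.7% of all genes. All 3 pairs went the same way in 8 of the 9, the exception being Sms, and in 56% of all genes. The members were chosen with earlier results of these data known. With 9 genes these shares are a description, and no set test was made.

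**Figure D2:**
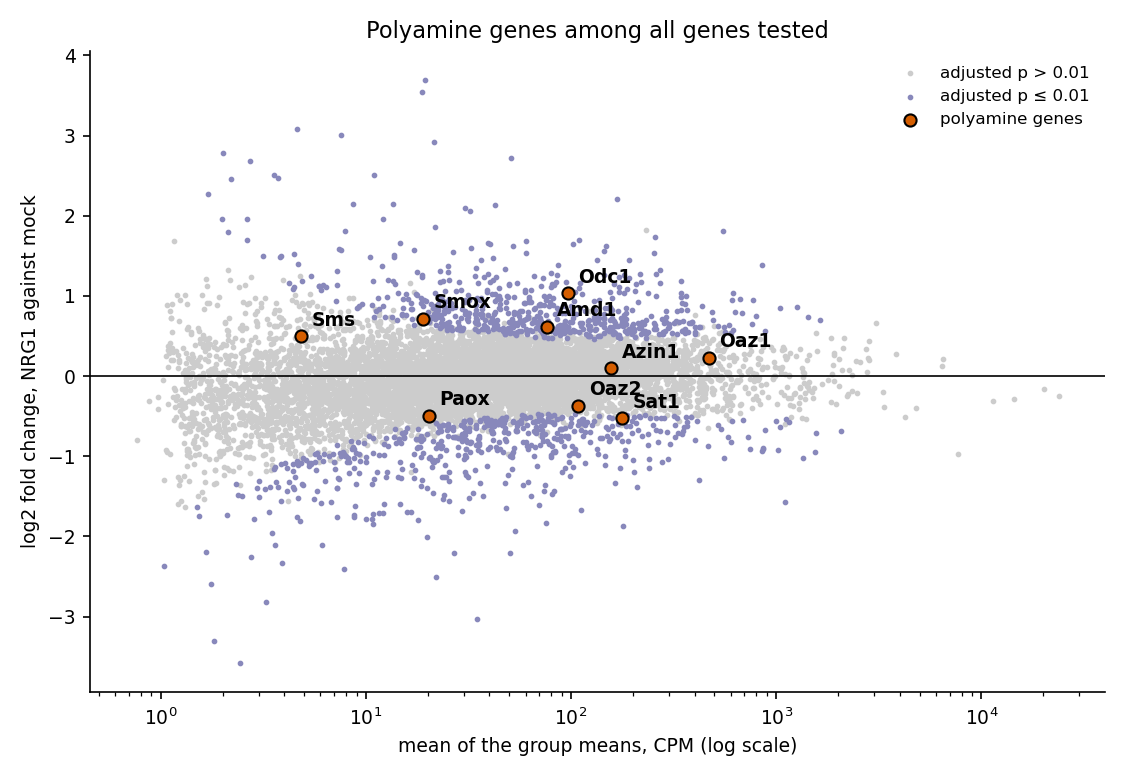
Log2 fold change of NRG1 against mock (vertical axis) by mean level in CPM (horizontal axis, log scale) for the 9740 genes tested, with the 9 tested polyamine genes in orange. Odc1, at 1.04, stands highest of the 9 and Sat1, at -0.52, lowest.

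Genes around the pathway were taken from lists of 40 symbols, of which 39 had a row and 25 were tested. Of these 25, 8 rose (32%) and none fell at an adjusted p of 0.01 in edgeR, against 6.31% and 5.51% of all genes tested. At an unadjusted p below 0.05, 13 were higher and 3 lower (Asl, Mat2b and Eif5a2), and over all genes 17% were higher and 18.7% lower. DESeq2 also called 8 up and none down, and it called 5.77% of all genes up and 3.89% down. The lists were chosen with earlier results of these data known, so these shares are a description. No set test was made. Among the 3 regulators of Odc1 transcription, Myc was at 36.1 to 59.3 CPM in mock and 63.8 to 92.4 CPM in NRG1 samples, with no overlap. Its log2 fold change was 0.72 with a 95% interval of 0.43 to 1.00 (edgeR adjusted p = 0.00167). Mycn, a related factor, rose by 0.98 on the log2 scale (edgeR adjusted p = 0.00234), and Max, their binding partner, was at 0.18 (edgeR adjusted p = 0.425). Myc had an adjusted p of 0.014 without replicate 1, and Mycn had 0.0104 without replicate 2.

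Spermidine is used to modify the translation factor eIF5A with hypusine, through Dhps and then Dohh. Eif5a was at 321.0, 419.5 and 493.1 CPM in mock and at 575.7, 1045.1 and 790.0 CPM in NRG1 samples 1, 2 and 3. The groups did not overlap, and the log2 fold change was 0.94 with a 95% interval of 0.64 to 1.25 (edgeR adjusted p = 0.000361). Dohh, the hydroxylase of the last step, rose by 0.80 (edgeR adjusted p = 0.000883). Dhps had 0.45 (edgeR adjusted p = 0.0363) and the second eIF5A gene, Eif5a2, -0.32 (edgeR adjusted p = 0.0839), so that neither passed, although Dhps was called without replicate 3, at 0.70 (edgeR adjusted p = 0.00826). Like Odc1, Eif5a and Dohh had their highest log2 ratio in replicate 2, at 1.32 and 1.14.

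On the side of the donor S-adenosylmethionine, Mtap, which salvages the methylthioadenosine released by Srm and Sms, averaged 21.4 ± 9.50 CPM (SD, n = 3) without NRG1 and 39.2 ± 5.30 CPM (SD, n = 3) with it. Its log2 fold change was 0.94 with a 95% interval of 0.60 to 1.29 (edgeR adjusted p = 0.000914), and its groups did not overlap. The other 4 salvage genes (Enoph1, Adi1, Apip and Mri1) lay between -0.23 and 0.31 and did not pass, and Apip and Mri1 changed sign under some alternatives. Ahcy, which clears S-adenosylhomocysteine, rose by 0.64 (edgeR adjusted p = 0.00193). Mat2a and Mat2b, the catalytic and regulatory subunits of the enzyme that makes S-adenosylmethionine, were at 0.34 and -0.34 (edgeR adjusted p = 0.081 and 0.0607).

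On the side of arginine and ornithine, the carrier Slc7a1 rose by 0.63 on the log2 scale (edgeR adjusted p = 0.00455). The largest value of that list, 0.92 for the carrier Slc7a2, did not pass (edgeR adjusted p = 0.018), and its mock samples ranged from 1.63 to 8.37 CPM. Ass1 was at 0.90 with a 95% interval of -0.08 to 1.87, and Asl and Oat at -0.38 and -0.24, all 3 above the threshold. Without replicate 1 the adjusted p of Slc7a1 was 0.0528 and that of Slc7a2 was 0.0075, so the calls of the 2 carriers changed places. Slc7a2 was also called with no filter on low counts (edgeR adjusted p = 0.00603), and without replicate 3 the adjusted p of Slc7a1 was 0.0189. Of 4 tested transport genes, Gpc1, a heparan sulfate proteoglycan with a role in polyamine uptake, lay between 827.7 and 1286.5 CPM in mock and between 1651.0 and 1865.5 CPM in NRG1 samples. It rose by 0.73 on the log2 scale (edgeR adjusted p = 0.00183, and 0.0102 without replicate 1). Slc3a2, Cav1 and Atp13a2 were at 0.36, 0.35 and 0.03 and did not pass. Cav1, the gene of caveolin, was called without replicate 1, at 0.71 (edgeR adjusted p = 0.00118), and Atp13a2 had -0.067 there. Azin2, the only tested gene of the remaining list, was at -0.53 (edgeR adjusted p = 0.245).

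**Figure D3:**
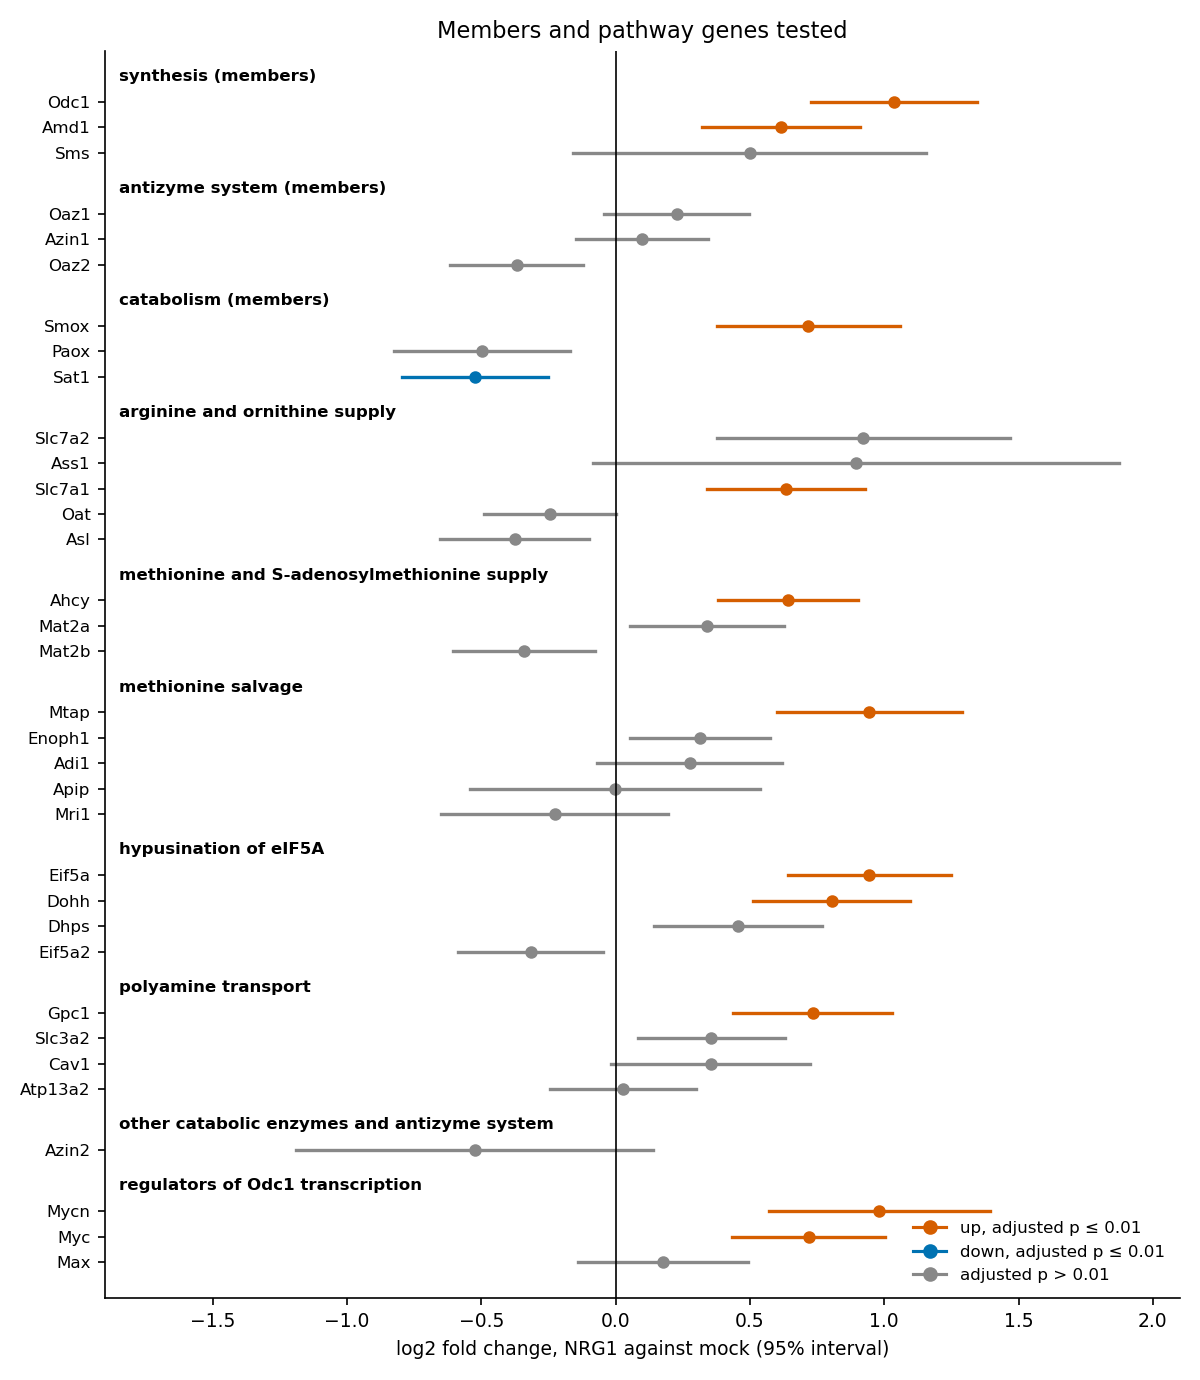
Log2 fold change of NRG1 against mock (horizontal axis) with its 95% interval for the 9 tested members and the 25 tested pathway genes, grouped by role. The 11 genes in orange rose and Sat1, in blue, fell at an adjusted p of 0.01, while grey genes did not pass.

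Over the 6 samples, the log2 CPM of Odc1 was most like that of G3bp1, with a Pearson r of 0.996, followed by Rabggtb (0.995), Fam136a (0.994), Wdr43 (0.993) and Rpf2 (0.993). Within the pathway, r with Odc1 was 0.97 for Amd1, 0.76 for Sms, 0.61 for Smox, -0.83 for Paox and -0.76 for Oaz2. It was smaller in size for Azin1 (0.59), Oaz1 (0.52) and Sat1 (-0.46). An r over 0.9 was reached by 232 of the 9739 other genes tested. These 6 points share the treatment and the preparations, so r only describes how closely the levels followed each other and has no test. All 5 genes rose in the 3 pairs, with log2 fold changes between 0.55 and 0.94, below the 1.04 of Odc1. Because they were chosen by r with Odc1 over these same samples, their rise follows from the choice and is no separate result. Rpf2 was called in every fit that kept the pairing, while the other 4 lost their call without replicate 2 and without replicate 3. Fam136a also lost it in DESeq2 (adjusted p = 0.0127).

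**Figure D4:**
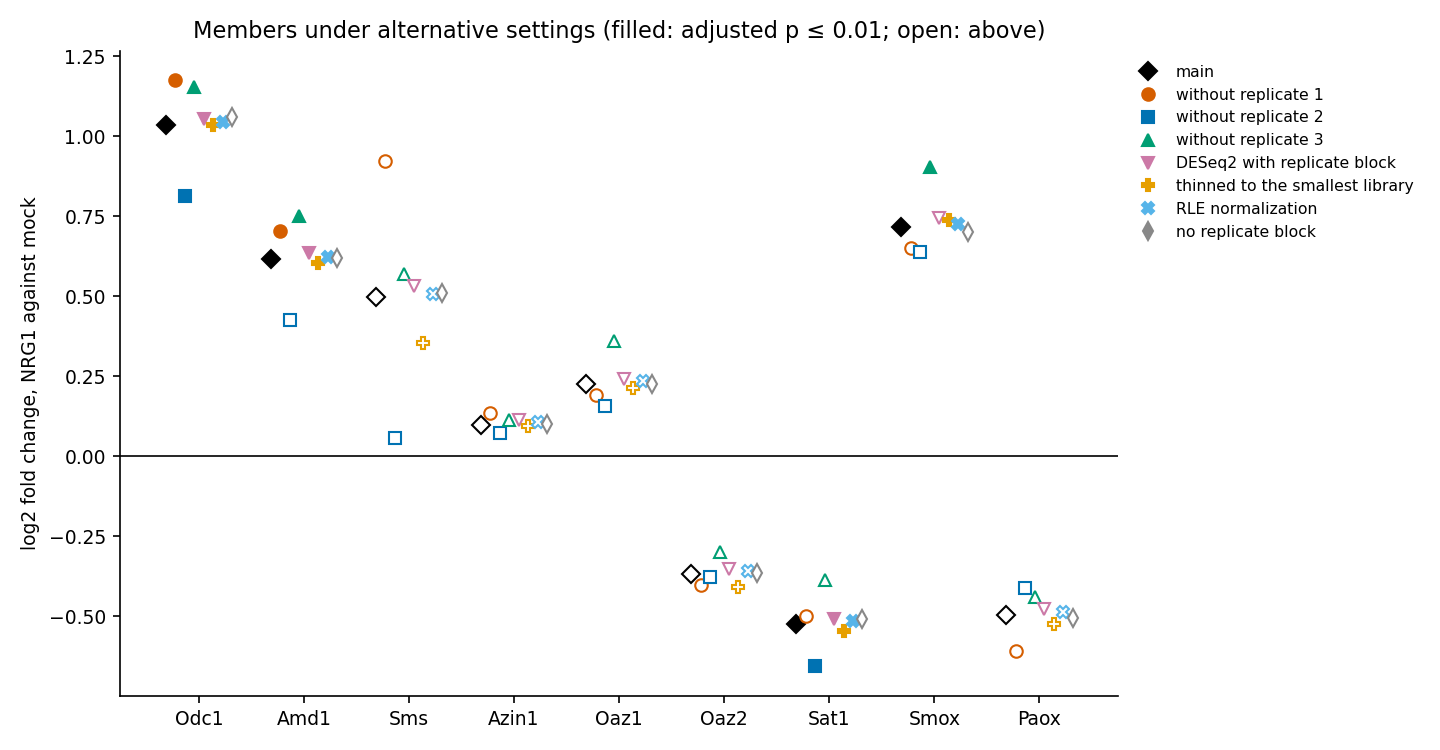
Log2 fold change of NRG1 against mock (vertical axis) for the 9 tested members in the paired edgeR fit (black) and under 7 alternatives, with filled marks at an adjusted p of 0.01 or less. Odc1 lay between 0.81 and 1.18 and was called in every fit that kept the pairing, while Sms ranged from 0.06 to 0.92.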

How the data were processed

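Gene counts of 6 RNA-seq libraries (poly(A) RNA, Illumina TruSeq kit that does not mark strand) were used. The authors aligned the reads to rn5 (TopHat2 2.0.10) and deposited raw HTSeq counts for RefSeq genes. Between 47.0% and 49.9% of alignments were assigned to genes, and the htseq summary lines were left out of library sizes. Alignments in more than 1 place were not counted by the authors. In GRCr8, RefSeq names 10 pseudogenes after Odc1, 3 after Amd1 and 2 each after Sms and Oaz1, so the counts of these 4 genes are uncertain in size. Overlapping genes cannot be separated without strand.

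A filterByExpr filter (minimum count 10) kept 9740 genes, which were scaled with TMM and tested with edgeR 4.0.16 in R 4.3.3 by a quasi-likelihood fit with the replicate number as a block, the paired design of the study's methods. P-values were adjusted over all 9740 genes by the Benjamini-Hochberg method, and a gene was called at an adjusted p of at most 0.01. Standard errors are the log2 fold change over the square root of F. Pair ratios use log2 CPM with a prior count of 2. Same-numbered samples came from the same preparation. Across genes, their deviations from the group means correlated with r of 0.91, 0.67 and 0.81 for replicates 1, 2 and 3, and with -0.80 to 0.51 for different numbers. Such deviations cancel out within each group, so negative r between different numbers is partly built in. Between replicates 2 and 3, different numbers gave 0.51, close to the 0.67 of replicate 2. Any 2 libraries differed by more than sampling noise (lowest ratio of chi-square to its degrees of freedom 22.9). The members and gene lists were chosen with earlier results of these data known. All members are named, with the pathway genes called or largest in their list and the 5 genes closest to Odc1 by r. The remaining tested pathway genes were added after their values were seen, to complete the lists. Alternatives were DESeq2 1.42.0, RLE scaling, other filters, thinned counts, robust empirical Bayes, other thresholds, no block and leaving out each replicate. The fit was tested on simulated counts with planted changes. It called 15 of 67 genes with an absolute log2 change of 0.5, 64 of 67 at 1 and 65 of 66 at 2. Most changes of 0.5 were thus missed there. The simulation changed 200 genes and gave every gene the same dispersion, while 1152 genes were called in the data. These shares therefore do not carry over to the data. Promoter windows are from RefSeq (GRCr8, 9 of 10 members matched). Further Schwann cell markers were listed at first and are not reported here.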

Additional observations from a re-analysis of the deposited data

How the results depend on the processing

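No member changed direction under any alternative run. Among the pathway genes named, 3 that had not passed the test changed sign. Without each replicate in turn, Apip ranged from -0.12 to 0.28, Mri1 from -0.52 to 0.11 and Atp13a2 from -0.067 to 0.13, and Apip was at 0.021 in DESeq2 and 0.0072 with RLE scaling. The blocked fit rests on 3 preparations of the study. With no replicate block, no member, pathway gene or other gene was called (0 up and 0 down), with a smallest adjusted p of 0.139 over all genes, 0.163 for Odc1, 0.204 for Amd1, 0.389 for Smox and 0.547 for Sat1. In that fit 3 members and 1334 of the 9740 genes had an unadjusted p below 0.05, and the common biological coefficient of variation was 0.374 against 0.119 with the block. In the 9 fits that kept the pairing, Odc1 was called in 9, Amd1 in 8, Sat1 in 7 and Smox in 6. Leaving out each replicate in turn gave 1 to 3 members up and 0 to 1 down, 7 to 8 pathway genes up and 0 down, and 408 to 590 genes up and 253 to 601 down over all genes. With an adjusted p of at most 0.05, 3 members were down, 1 pathway gene was down, and 1124 genes were up and 1136 down. Back at the threshold of 0.01, and asking for a log2 change beyond 1 too, 1 member was up and 0 down, 0 pathway genes were up, and 152 genes were up and 186 down. Without a filter on low counts, with 13129 genes tested, 848 genes were up and 857 down. The causes of these shifts were not tested. A prior count of 0.5 moved the log2 ratio of Srm in replicate 2 from 2.29 to 4.05, at 0 and 7 counts. RLE scaling moved the median log2 fold change of all genes by 0.0084. A member that did not pass is not shown to be unchanged, and Srm and Sms are limited by their counts.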

Other observations

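Spermidine synthase, Srm, had 0 to 7 counts in every library. Aldh18a1, which leads from glutamate towards ornithine and proline, had no count in any of the 6 libraries, as had Aoc1 and Slc22a3. Of the 39 pathway genes with a row, 14 did not pass the filter on low counts. One of them was Sat2, with 64 and 36 counts in mock and NRG1 samples of replicate 1 and 3 to 11 counts in the other 4. The annotation and mapping of Srm and Aldh18a1 in rn5 were not examined here, so these counts do not show that the genes were not expressed.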
